A study of Caenorhabditis elegans with 36 samples.

Results

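The cytochrome P450 genes of *Caenorhabditis elegans* were described across 36 mRNA libraries of whole worms. Members were the protein-coding genes whose symbol in the Ensembl WBcel235 annotation begins with cyp- and a number and that had 10 or more counts in 6 or more of the 36 libraries. Of the 74 genes with such a symbol, 68 were members, in a table of 46093 genes. The genes just outside the rule were *cyp-33C11* and *cyp-35B2*, each with 10 counts in 5 libraries, and *cyp-33C1* with 2, whereas *cyp-25A6*, *cyp-33B1* and *cyp-35B3* reached 10 counts in 0 libraries. Just inside it were *cyp-33C6* with 9 libraries, *cyp-13A11* and *cyp-34A1* with 11 and *cyp-13A7* with 12.

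P450 enzymes are haem-containing monooxygenases that insert an oxygen atom into small lipophilic molecules, using electrons that a reductase, and in some cases cytochrome b5, hands on from NADPH. In the worm the family is spread over many recently duplicated genes, most of the studied ones active in the intestine, and it handles foreign compounds as well as fatty acids, sterols and the lipids of the eggshell. Several members are known for strong induction by chemicals, among them the *cyp-35A* genes, and others act in the synthesis of signalling lipids.

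The libraries were made from polyadenylated RNA of worms labelled wild type at 20 °C (hereafter WT20), *eat-2*, *ife-2* and *osm-5* at 20 °C, wild type at 25 °C (WT25) and *glp-1* at 25 °C, with 6 biological replicates in each group. The study names the strains as N2 wild type and the alleles *eat-2(ad1116)*, *ife-2(ok306)*, *osm-5(p813)* and *glp-1(e2141)*, grown on NGM plates with OP50 bacteria. Mutations in these genes lengthen lifespan, through reduced feeding (*eat-2*), reduced translation (*ife-2*), loss of sensory cilia (*osm-5*) and loss of the germ line (*glp-1*). The comparison asked of each mutant is how its transcripts differ from those of wild type. The labels do not settle the stage, which is given as prefertile young adult in one field and as the first day of adulthood in another, nor the temperature, because the growth protocol names 20 °C for every group while the sample fields give 25 °C for WT25 and *glp-1*.

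Libraries held 35524715 to 55878280 counts. Several groups stood against their labels, so they are called here by the label alone. The transcript of *ife-2* was higher in the libraries labelled *ife-2* (60.7 to 77.6 CPM, counts scaled to library size) than in WT20 (22.6 to 24.9 CPM) and was lowest in those labelled *eat-2* (3.15 to 3.88 CPM). The 10 germ line markers summed to 14.1 to 18.6 CPM in the libraries labelled *ife-2* and to 1460 to 2149 CPM in those labelled *glp-1*, against 1824 to 2326 CPM in WT20 and 2008 to 2773 CPM in WT25. The mutated genes *eat-2*, *osm-5* and *glp-1* carry changes that need not alter transcript level, and the source of these disagreements was not tested. The third library labelled *osm-5* stood apart from the other libraries, with a normalisation factor of 0.427 where the next lowest was 0.694. In whole worms, fewer cells of a type and less RNA per cell cannot be told apart.

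The 68 members lay on all 6 chromosomes, 36 of them on chromosome V, 12 on chromosome II, 7 on X, 6 each on III and IV and 1 on I. Of all 74 genes, 45 stood in 11 clusters with gaps of at most 25 kb. The largest cluster, at V:3936326-3972991, held 10 genes (*cyp-35A5*, *cyp-35B1* to *cyp-35B3* and *cyp-34A5* to *cyp-34A10*), and the next, at II:9779181-9807569, held *cyp-13A1* to *cyp-13A8*. For 22 members the annotation places another gene over part of the same sequence, and for 7 of these that gene is protein-coding (*cyp-31A5*, *cyp-33E3*, *cyp-36A1*, *cyp-37A1*, *cyp-37B1*, *cyp-43A1* and *cyp-44A1*). That gene lies on the same strand for *cyp-44A1* and on the opposite strand for the others. The sources do not say if read strand was used in counting, and strand would not separate the reads of *cyp-44A1*. The values of these 7 are therefore uncertain, as is the division of reads among close copies such as *cyp-31A2* and *cyp-31A3*.

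P450 transcripts were modest in amount and unevenly divided. In WT20 the 68 members summed to 473.4, 535.9 and 592.6 CPM (lowest, median and highest of 6 libraries), and the 5 most abundant took 39.6% of the summed mean. Per kb of exon, *cyp-35A2* was the highest member in all 6 groups, at 43.9 ± 12.1 CPM per kb in WT20 (SD, n = 6), followed by the eggshell genes *cyp-31A2* (29.3 ± 3.94) and *cyp-31A3* (25.1 ± 2.83). These neighbours in the order overlapped within their SD. At the other end, 23 members had a mean under 1 CPM per kb in WT20.

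The summed level differed between labels. It was 945.4, 1154 and 1333 CPM in the libraries labelled *ife-2*, where every library was above every WT20 library, and 649.7, 730.4 and 765.7 CPM in those labelled *osm-5*, again without overlap. The libraries labelled *eat-2* (392.6, 476.4 and 534.1 CPM) overlapped WT20, and the libraries labelled *glp-1* (550.5, 600.6 and 971.2 CPM) lay above those of WT25 (465.6, 490.1 and 522.0 CPM). The highest of the *glp-1* libraries was the fifth. The results for *osm-5* and *eat-2* depended on the normalisation factors. As a share of all counts, without these factors, the members held 0.0277% to 0.0789% with *osm-5*, overlapping WT20 (0.0576% to 0.0654%). With *eat-2* the share was 0.0426% to 0.0543%, below WT20 without overlap. Libraries labelled *ife-2* and *glp-1* stayed above those of their wild type.

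**Figure D1:**
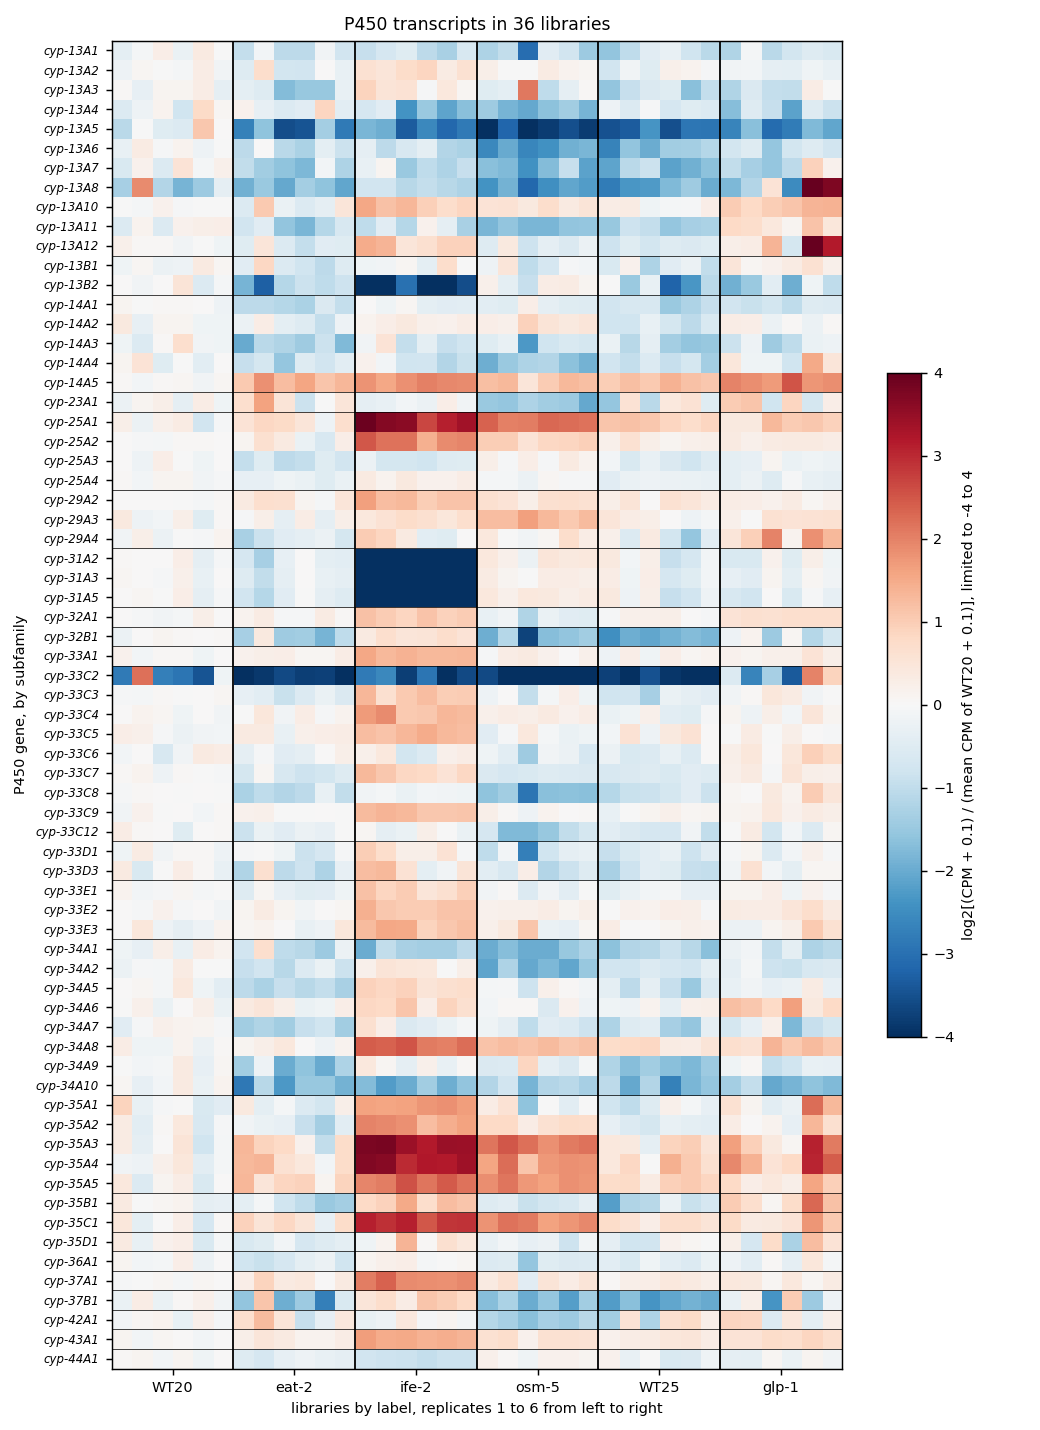
Level of each of the 68 members (lines, ordered by subfamily) in each of the 36 libraries (columns, by label), as the log2 ratio of CPM to the WT20 mean with 0.1 CPM added to both, limited to -4 to 4. Blue marks lower and red higher values than the WT20 mean. The 3 *cyp-31A* genes are deep blue in the 6 libraries labelled *ife-2* and much nearer 0 elsewhere. They are paler blue in some other libraries, such as the second *eat-2* library (19.1 CPM of *cyp-31A2*). *cyp-13A5* is blue in all 5 groups other than WT20.

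Each label was tested against its wild type with edgeR's quasi-likelihood test, and a member counted as higher or lower, or as called, where its p after Benjamini-Hochberg adjustment over all genes tested was under 0.01. With the *eat-2* label, 5 of 64 tested members were higher and 18 lower than in WT20 (7.81% and 28.1%), where 18.4% and 12.8% of all genes tested were. With the *ife-2* label, 36 of 66 were higher and 13 lower (54.5% and 19.7%), against 44.1% and 40.9% of all genes. With the *osm-5* label, 14 of 63 were higher and 15 lower (22.2% and 23.8%), against 7.01% and 10.9% of all genes. With the *glp-1* label, 21 of 60 were higher than in WT25 (35%) and 0 lower, against 12% and 10.9% of all genes; 1 member was lower at an unadjusted p below 0.05, and DESeq2 also called 0. WT25 itself had 6 of 65 members higher and 26 lower than WT20 (9.23% and 40.0%), against 13% and 11% of all genes. The *eat-2*, *ife-2*, *osm-5* and WT25 comparisons share the WT20 libraries, and the *glp-1* and WT25 comparisons share the WT25 libraries. The small counts of higher members moved with single libraries, from 1 to 8 with the *eat-2* label and from 3 to 8 in WT25 as each library was left out, and the 26 lower in WT25 fell to 16 without its second library.

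The median log2 fold change of the members tested was -0.38 with the *eat-2* label, 0.66 with *ife-2*, -0.03 with *osm-5*, 0.36 with *glp-1* and -0.43 in WT25, where the median of all genes was 0.01, 0.17, 0.05, 0.02 and -0.02. Scaling mattered most for the *ife-2* label, where the median of all genes ran from -0.35 with total counts to 0.62 with upper-quartile scaling and the share of called members that were higher ran from 59.1% to 84.9%, around 73.5%. With total counts alone the share that were higher fell from 21.7% to 3.7% with the *eat-2* label, from 48.3% to 28.6% with *osm-5* and from 18.8% to 8.57% in WT25. Every member called kept its sign with total counts, upper-quartile scaling and DESeq2 except *cyp-14A2*, *cyp-25A4* and *cyp-34A2* with the *ife-2* label, which were slightly lower with total counts.

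**Figure D2:**
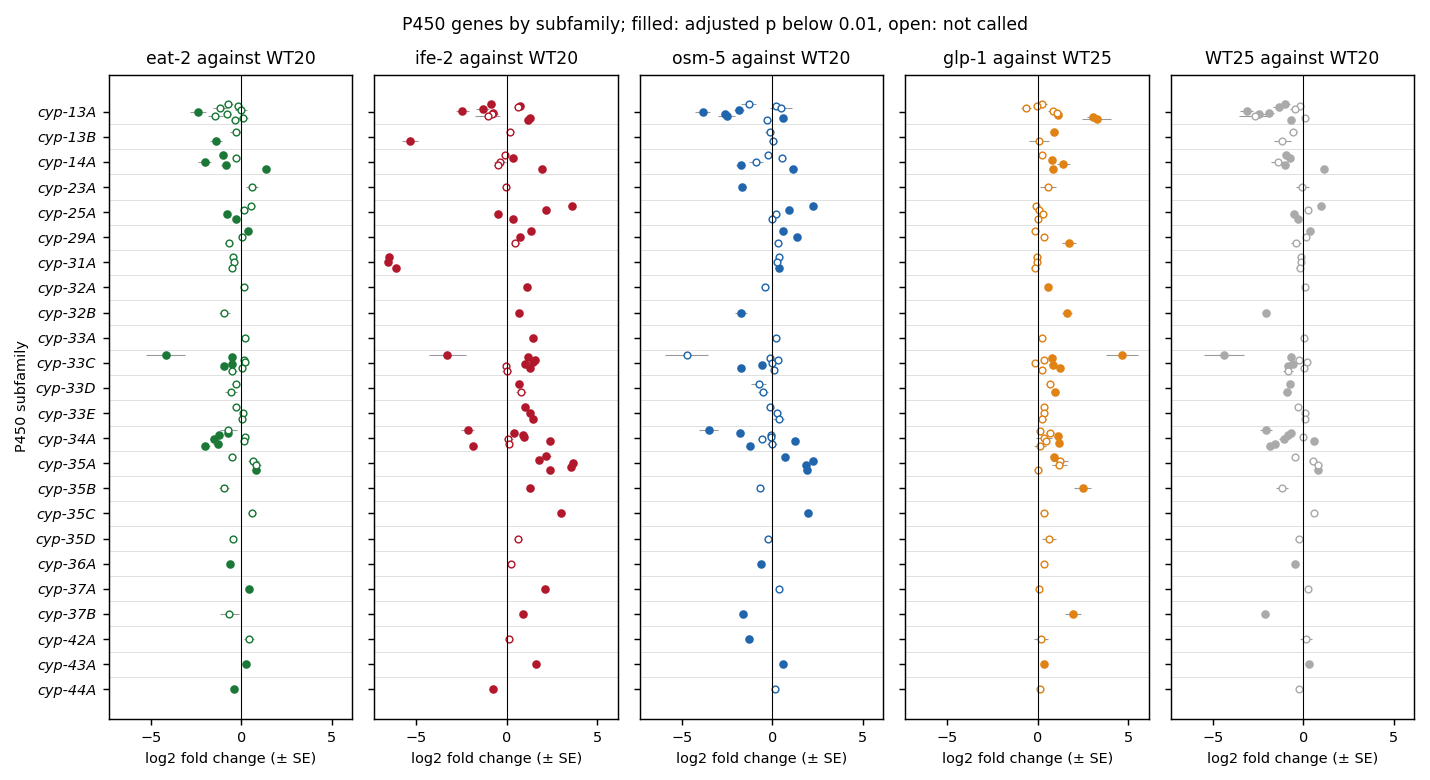
Log2 fold change of each tested member (points, with SE) by subfamily in the 5 comparisons, filled where the adjusted p was below 0.01. The *cyp-31A* genes stand near -6 with the *ife-2* label, the *cyp-35A* and *cyp-35C* genes are to the right with the *ife-2* and *osm-5* labels, and the *glp-1* panel has filled points to the right of 0 and 0 to the left.

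The eggshell P450s were the members that differed most with the *ife-2* label. *cyp-31A2* (IV:11403961-11406091) and *cyp-31A3* (IV:4761049-4762885) act in the germ line, where they modify lipids of the eggshell's permeability barrier. *cyp-31A2* measured 37.1, 48.5 and 57.0 CPM in WT20 (lowest, median and highest) and 0.299, 0.521 and 0.639 CPM in the libraries labelled *ife-2*. *cyp-31A3* measured 32.4, 40.4 and 46.3 CPM in WT20 and 0.206, 0.376 and 0.609 CPM with that label. The 6 libraries with the *ife-2* label were far below the other 30 for both genes and for *cyp-31A5*. The log2 fold changes were -6.50 ± 0.139 (SE, adjusted p = 1.2e-15), -6.55 ± 0.154 (adjusted p = 2.8e-15) and -6.10 ± 0.16 (adjusted p = 8.95e-15) by edgeR's quasi-likelihood test. With the *glp-1* label *cyp-31A2* measured 31, 37.9 and 55.9 CPM, overlapping WT25 (25.4, 44.3 and 63.1 CPM), and its log2 fold change was -0.06. The germ line markers moved with the *cyp-31A* genes, with the 10 genes at 14.1 to 18.6 CPM and 6 sperm genes at 6.33 to 10.4 CPM with the *ife-2* label, against 425 to 542 CPM for sperm genes in WT20. The 8 oocyte and eggshell genes fell less far in sum, to 1098 to 2320 CPM with the *ife-2* label from 2912 to 4828 CPM in WT20, without overlap. The part of these markers in the result was not tested.

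*cyp-13B2* (X:14225573-14228785) measured 1.25, 1.84 and 2.74 CPM in WT20 (62 to 137 counts) and 0, 0.0129 and 0.152 CPM with the *ife-2* label (0 to 5 counts), without overlap. It was called lower (adjusted p = 1.14e-08), but it met the count minimum of the test only through WT20 and was not tested in the 6 fits that left out a WT20 library. Its size of change is not given, since most libraries with the label were at or below 3 counts. It was also lower with the *eat-2* label (-1.39, adjusted p = 0.00582), a call that held in 5 of 12 fits that each left out 1 library. *cyp-44A1*, the worm's mitochondrial-type P450, was 1.69-fold lower with the *ife-2* label than in WT20, with all 6 libraries (14.7, 15.8 and 16.8 CPM) below the other 30. This value is uncertain, because another protein-coding gene overlaps *cyp-44A1* on the same strand.

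Genes of the *cyp-35A* subfamily and *cyp-35C1* rose with the *ife-2* and the *osm-5* labels. The *cyp-35A* genes respond to foreign chemicals and have been tied to fat storage. All 5 were called higher with the *ife-2* label, with a median log2 fold change of 2.37, and 4 of 4 tested with the *osm-5* label, with a median of 1.89. *cyp-35A3* (V:4022609-4024482) measured 4.71, 8.07 and 11.8 CPM in WT20, 74.6, 89.8 and 116 CPM with the *ife-2* label and 29.4, 37.2 and 46.8 CPM with the *osm-5* label. Both sets of 6 libraries lay above WT20 without overlap, and those labelled *ife-2* also lay above the other 30. The log2 fold changes were 3.64 ± 0.187 (adjusted p = 2.91e-11) and 2.24 ± 0.206 (adjusted p = 1.3e-05).

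*cyp-35A2* (V:7362319-7364182) measured 45.2, 69.7 and 93.8 CPM in WT20, 163, 231 and 275 CPM with the *ife-2* label and 85.7, 114 and 122 CPM with the *osm-5* label. The groups did not overlap for the *ife-2* label (log2 fold change 1.80, adjusted p = 6.36e-08) and did for the *osm-5* label (0.71, adjusted p = 0.00592), where the call held in 3 of 12 fits that left out 1 library. *cyp-35A5* (V:3936326-3938597) rose by 2.37 and 1.91 on the log2 scale, and *cyp-35A4* by 3.56 and 1.87. *cyp-35C1* rose from 13.1, 21.4 and 29 CPM in WT20 to 117, 157 and 181 CPM and to 64.0, 77.1 and 94.2 CPM, log2 fold changes of 3.02 ± 0.17 and 1.97 ± 0.189 (adjusted p = 8.78e-11 and 1.8e-05). *cyp-35B1* rose with the *ife-2* label (1.31, adjusted p = 6.34e-06) and was -0.65 with the *osm-5* label (adjusted p = 0.0135, not called). *cyp-35D1*, which metabolises the drug thiabendazole, was not called in any of the 5 comparisons, with log2 fold changes from -0.47 to 0.62.

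*cyp-25A1* and *cyp-25A2* (III:3832591-3834586 and III:3835221-3837211) rose with the same labels. *cyp-25A1* measured 2.40, 4.34 and 5.19 CPM in WT20, 26.6, 47.1 and 63.9 CPM with the *ife-2* label and 16.9, 19.1 and 21.5 CPM with the *osm-5* label. None of these libraries overlapped WT20. The log2 fold changes were 3.58 ± 0.213 (adjusted p = 1.74e-10) and 2.27 ± 0.162 (adjusted p = 2.58e-06), and it was also called higher in WT25 (0.97). *cyp-25A2* rose by 2.16 and 0.92, whereas *cyp-25A3* was called lower with the *ife-2* label (-0.46) and measured 0.22 (not called) with the *osm-5* label.

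Of the other subfamilies, all 3 *cyp-33E* genes, *cyp-33A1*, *cyp-37A1*, *cyp-32A1* and 5 of 8 tested *cyp-33C* genes were called higher with the *ife-2* label. *cyp-33E2*, an enzyme that makes eicosanoids from polyunsaturated fatty acids, measured 6.63, 7.17 and 8.12 CPM in WT20 and 14.8, 15.6 and 19.6 CPM with that label, without overlap (log2 fold change 1.26 ± 0.0835, adjusted p = 6.8e-10). *cyp-29A3*, also tied to eicosanoids, was highest with the *osm-5* label: its 6 libraries (7.09, 8.24 and 10.7 CPM) were above all 30 others, and the log2 fold change against WT20 (2.38, 3.31 and 4.42 CPM) was 1.38 ± 0.162 (adjusted p = 7.17e-05). It was higher with the *ife-2* label as well (0.71, adjusted p = 7.95e-05, a call that held in 9 of 12 fits that left out 1 library).

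*cyp-37A1* had the largest rise with the *ife-2* label outside the *cyp-25A*, *cyp-34A* and *cyp-35* genes. It measured 13.5, 14.4 and 15.1 CPM in WT20 and 51.5, 54.0 and 73.8 CPM with the label, all 6 above the other 30 libraries (2.10 ± 0.0823, adjusted p = 9.75e-13). *cyp-33A1* rose from 9.13, 10.5 and 11.5 CPM to 25.2, 25.9 and 30.1 CPM (1.47 ± 0.0682, adjusted p = 7.78e-12) and *cyp-29A2* from 12.4, 13.2 and 13.6 CPM to 26.2, 29.9 and 41.2 CPM (1.36 ± 0.0915, adjusted p = 8.23e-10), again with all 6 above the other 30 libraries. *cyp-29A4* was called higher with the *glp-1* label, where it measured 1.09, 2.27 and 4.13 CPM against 0.271, 0.662 and 1.27 CPM in WT25, an overlap of the lowest with the highest (1.75 ± 0.391, adjusted p = 0.00356).

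For 19 members all 6 libraries labelled *ife-2* were above the other 30, and for 4 all 6 were below them (27.9% and 5.88% of 68). Over the 17457 genes that met the same count minimum, these shares were 14.7% and 31%. Markers of the intestine moved in the same direction. The 9 intestinal genes summed to 8404 to 13780 CPM with the *ife-2* label against 3927 to 4265 CPM in WT20, 8 of the 9 were called higher with a median log2 fold change of 1.32, and the 6 yolk genes summed to 104200 to 182900 CPM against 31590 to 66510 CPM. With the *osm-5* label the intestinal sum was 3404 to 4648 CPM, overlapping WT20, and the yolk sum was 49630 to 97250 CPM, also overlapping, with 3 of the 6 yolk genes called higher and a median log2 fold change of 1.34. The part of tissue share in the P450 values was not tested.

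**Figure D3:**
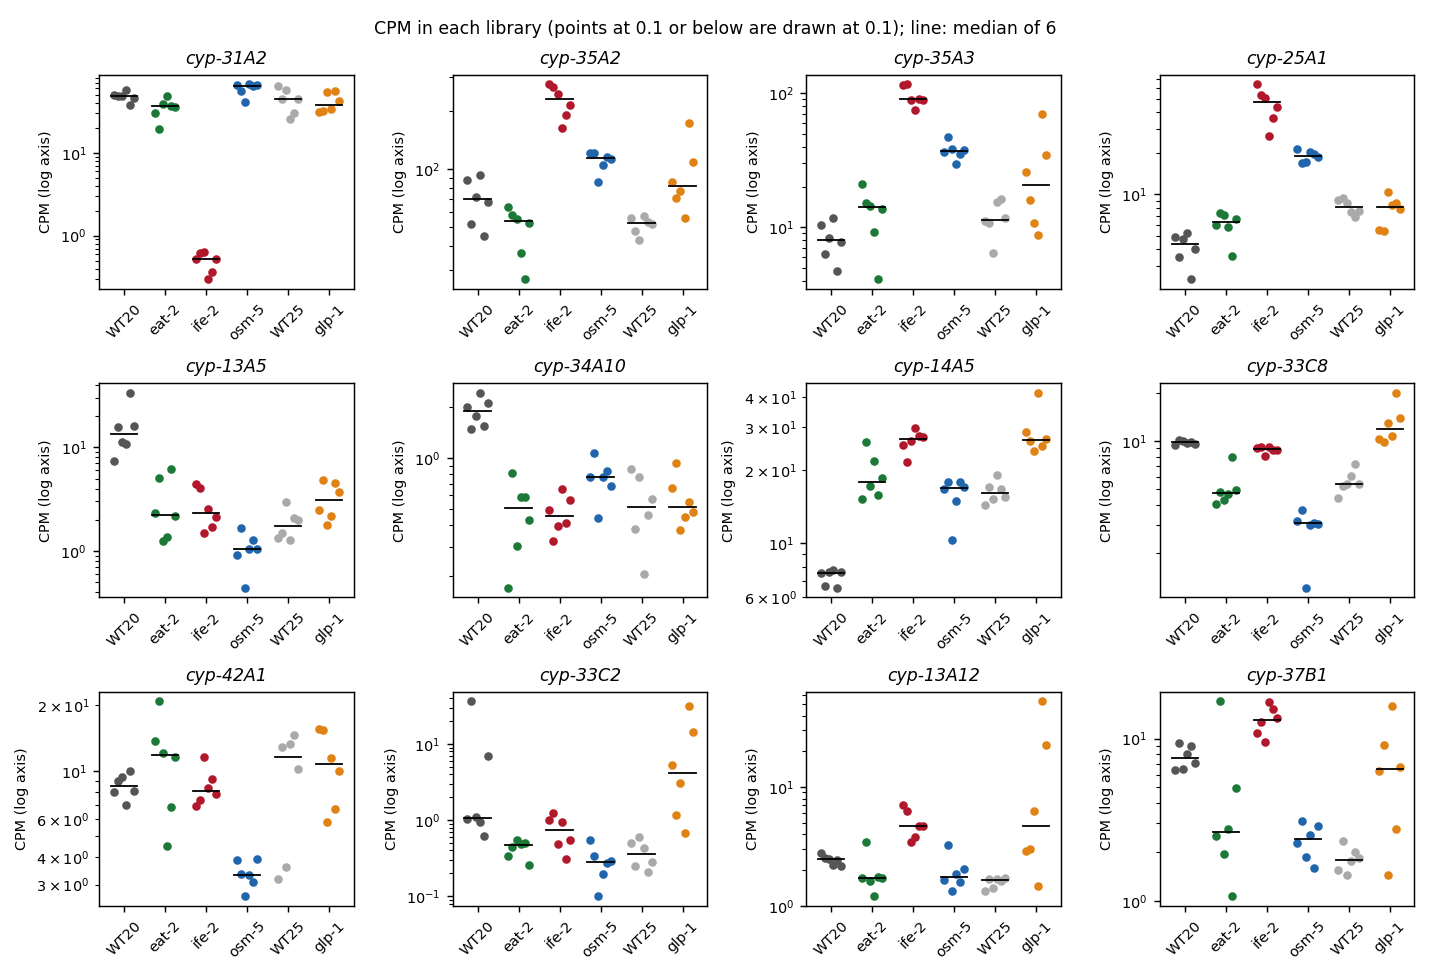
CPM on a log axis of 12 members in each of the 36 libraries, with the median of 6 as a line. *cyp-31A2* separates the *ife-2* label, *cyp-35A3* and *cyp-25A1* are higher with the *ife-2* and *osm-5* labels, *cyp-13A5* and *cyp-34A10* are highest in WT20, *cyp-14A5* is lowest in WT20, and *cyp-33C2* and *cyp-13A12* have single high libraries.

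WT20 was the highest group for a set of *cyp-13A* and *cyp-34A* genes. *cyp-13A5* (II:9798277-9800362) measured 7.40, 13.4 and 33.6 CPM in WT20, 1.26, 2.24 and 6.13 CPM with the *eat-2* label, 1.49, 2.33 and 4.41 CPM with *ife-2*, 0.442, 1.04 and 1.65 CPM with *osm-5*, 1.28, 1.74 and 2.99 CPM in WT25 and 1.77, 3.07 and 4.86 CPM with *glp-1*. The 6 WT20 libraries were above the other 30. The log2 fold changes against WT20 were -2.38 ± 0.455 with *eat-2*, -2.45 ± 0.365 with *ife-2*, -3.84 ± 0.413 with *osm-5* and -3.12 ± 0.361 in WT25 (adjusted p = 0.00109, 1.17e-05, 3.99e-05 and 2.27e-05). The fifth WT20 library set the top of the range, and leaving it out gave -2.0, -3.49 and -2.74 for *eat-2*, *osm-5* and WT25. All 6 WT20 libraries were above the other 30 for *cyp-13A5* and *cyp-34A10*, 2.94% of the members. The share was 0.493% of the 17457 genes that met the count minimum for members.

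*cyp-34A10* (V:3970702-3972991) was also highest in WT20, with 1.47, 1.88 and 2.42 CPM in WT20 and at most 1.06 CPM in any library of the other 5 groups. Its log2 fold changes were -1.98, -1.86, -1.24 and -1.82 with the *eat-2*, *ife-2* and *osm-5* labels and in WT25, each called. Its neighbour *cyp-34A8* (V:3964797-3967823) went the other way, from 12.3, 14 and 17.9 CPM in WT20 to 58.7, 72.6 and 84.2 CPM with the *ife-2* label and 31.2, 32.8 and 35.5 CPM with *osm-5* (log2 fold changes 2.39 and 1.24). Within the cluster of 10 genes that holds both, 8 were members, and log2 fold changes with the *ife-2* label ran from -1.86 to 2.39.

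With the *osm-5* label 4 of 9 tested *cyp-13A* genes were called lower, including *cyp-13A6* (0.938, 1.16 and 1.49 CPM in WT20 against 0.110, 0.177 and 0.264 CPM, log2 fold change -2.62 ± 0.229, adjusted p = 8.77e-06), while *cyp-13A10* was higher (0.61). *cyp-13A7* was also among those called lower (adjusted p = 0.00179), at 0.250 to 0.679 CPM in WT20 and 0 to 0.181 CPM with the label. It met the count minimum of the test largely through WT20. Most of its libraries with the *osm-5* label were at or below 3 counts, so its size of change is not given. *cyp-34A1* and *cyp-13A11* were near the limit of detection there. With at most 3 and 1 counts in any *osm-5* library, they were at least 3.71-fold and 3.25-fold lower than the WT20 mean, taking a floor of 3 counts per library. *cyp-13A11* was not tested in this comparison. *cyp-34A1* was called lower, but it met the count minimum only through WT20 and was not called in any fit that left out a WT20 library. *cyp-33C8* and *cyp-34A2* were lower in all 6 libraries labelled *osm-5* than in the other 30, at 1.21 to 3.73 CPM and 1.05 to 2.04 CPM. They made up 2.94% of the members, a share no larger than the 3.59% of the 17457 genes that met the count minimum for members. All 6 were above the other 30 for *cyp-29A3* alone, 1.47% of the members against 0.349% of these genes.

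*cyp-23A1* and *cyp-42A1* (V:18912036-18918117) were lower with the *osm-5* label, by -1.65 ± 0.197 and -1.30 ± 0.119 on the log2 scale (adjusted p = 8.56e-05 and 1.26e-05). *cyp-42A1* measured 6.99, 8.56 and 9.95 CPM in WT20 and 2.65, 3.33 and 3.94 CPM with the *osm-5* label, without overlap. The 8 molting genes moved with them, summing to 29.5 to 113 CPM with the *osm-5* label against 360 to 744 CPM in WT20. The same genes split WT25, in which libraries 1 and 3 had the lowest molting sums (142 and 198 CPM, against 719 CPM or more in the other 4) and WT25 spanned 3.19 to 14.7 CPM of *cyp-42A1*. The part of stage or molting in these values was not tested.

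Leaving out the third *osm-5* library gave 19 members higher and 20 lower in place of 14 and 15, and all 14 and all 15 remained called. *cyp-36A1* (I:8341682-8346023), which acts downstream of the hypoxia regulators EGL-9 and HIF-1, rested more on single libraries. It measured 7.82, 8.92 and 11.1 CPM in WT20 and 3.09, 6.24 and 6.55 CPM with the *osm-5* label, without overlap. Its log2 fold change was -0.63 (adjusted p = 0.00854), -0.53 without the third library, and the call held in 2 of 12 fits that left out 1 library. Its value with the *eat-2* label was -0.61 (adjusted p = 0.00186), called in all 12 such fits.

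*cyp-14A5* (V:5421018-5423282) and *cyp-43A1* (X:5714522-5717562) were the members called higher in all 5 comparisons. *cyp-14A5* measured 6.55, 7.55 and 7.75 CPM in WT20, 15.2, 17.9 and 26.2 CPM with *eat-2*, 21.5, 26.9 and 29.8 CPM with *ife-2*, 10.3, 16.9 and 17.9 CPM with *osm-5*, 14.4, 16.1 and 19.2 CPM in WT25 and 24, 26.6 and 41.7 CPM with *glp-1*. For both genes the 6 WT20 libraries were below the other 30. This held for 2.94% of the members and for 1.1% of the 17457 genes that met the count minimum for members. The log2 fold changes of *cyp-14A5* against WT20 were 1.39, 1.97, 1.16 and 1.14 for *eat-2*, *ife-2*, *osm-5* and WT25, and 0.85 for *glp-1* against WT25 (adjusted p from 2.97e-12 to 0.000295). The calls of *cyp-43A1* were small, 0.28 with *eat-2* and 0.36 with *glp-1*, apart from 1.60 with *ife-2* and 0.61 with *osm-5*, and those with *eat-2* and *glp-1* held in 7 and 8 of 12 fits that left out 1 library.

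Members at lower levels were also called. *cyp-14A1* measured 3.96, 4.65 and 4.94 CPM in WT20, 1.85, 2.19 and 3.04 CPM with the *eat-2* label and 1.58, 2.52 and 2.91 CPM in WT25, without overlap in either comparison (log2 fold changes -1.01 ± 0.118 and -0.97 ± 0.139, adjusted p = 3.42e-05 and 0.000134). *cyp-34A7* measured 0.375, 0.570 and 0.648 CPM in WT20 and 0.150, 0.167 and 0.273 CPM with the *eat-2* label (-1.52 ± 0.209, adjusted p = 0.000114). The groups did not overlap. *cyp-34A5* was lower with the *eat-2* label (-1.23) and higher with *ife-2* (0.92), where its 6 libraries were above the other 30. *cyp-13A1* and *cyp-13A3* were lower in WT25 (-0.98 and -1.35), and the call of *cyp-13A1*, whose groups overlapped, held in 3 of 12 fits that left out 1 library. *cyp-33D1* and *cyp-33D3* fell by 0.73 and 0.89 on the log2 scale in WT25, calls that held in 4 and 7 of 12 such fits.

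The fall of P450 transcripts with the *eat-2* label depended on which wild type it was set against. Against WT20, 18 members were lower and 5 higher. Against WT25, edgeR called 0 of 58 tested members lower and 0 higher, and 2 and 5 at an unadjusted p below 0.05. Over all genes, 0.196% were lower and 0.092% higher than in WT25. *cyp-34A9*, also known as *dod-16*, a gene downstream of the insulin-regulated factor DAF-16, measured 9.51, 11.5 and 15.3 CPM in WT20, 2.88, 4.16 and 10.2 CPM with the *eat-2* label and 3.33, 4.00 and 5.18 CPM in WT25, log2 fold changes of -1.30 (adjusted p = 0.00141) and -1.56 (adjusted p = 1.27e-06). The second *eat-2* library was the one that overlapped WT20.

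The wild type was exchanged for the *ife-2* and *osm-5* labels as well. Against WT25 in place of WT20, 45 of 61 tested members were higher and 5 lower with the *ife-2* label, where 43.1% of all genes were higher and 38.4% lower. All 36 of those higher against WT20 were among the 45, and *cyp-31A3*, *cyp-31A2* and *cyp-31A5* kept log2 fold changes of -6.53, -6.45 and -6.01. With the *osm-5* label 11 of 60 were higher, 8 of them among the 14, and 2 lower, both among the 15, where 2.14% of all genes were higher and 4.97% lower. *cyp-35A3* and *cyp-25A1* with the *osm-5* label were still higher, by 1.67 and 1.25 on the log2 scale.

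**Figure D4:**
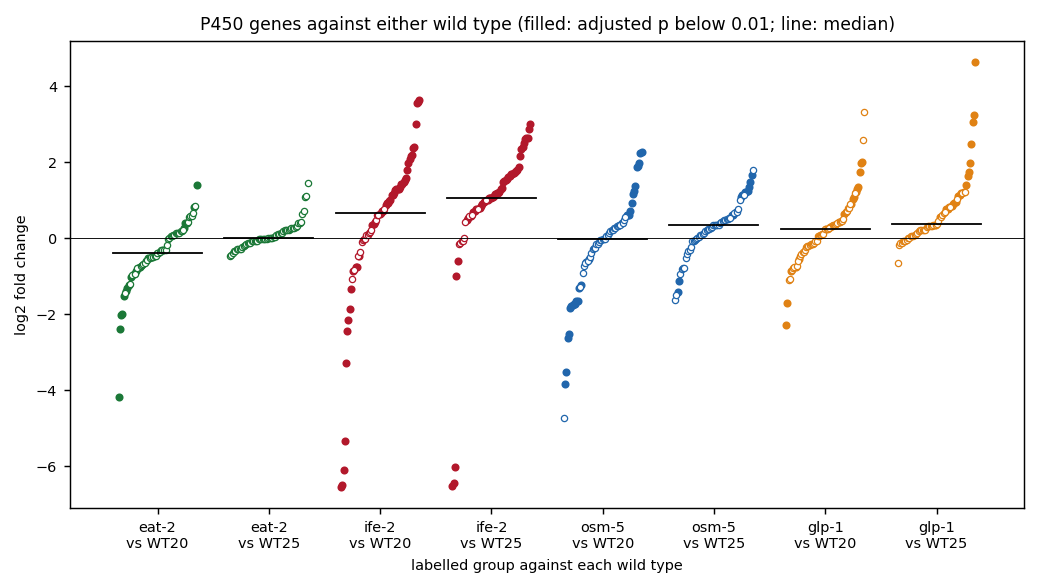
Log2 fold change of every tested member (points in rising order, filled where the adjusted p was below 0.01, median as a line) for each mutant label against WT20 and against WT25. With the *eat-2* label the 23 filled points against WT20 become 0 against WT25; the *cyp-31A* points of the *ife-2* label stay below -6 in both.

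With the *glp-1* label the called members all rose against WT25. *cyp-13A11* and *cyp-13A12*, neighbours at III:13021006-13028017, were among them. *cyp-13A11* measured 0.0229, 0.0447 and 0.101 CPM in WT25 (1 to 4 counts) and 0.285, 0.433 and 0.677 CPM with the *glp-1* label (16 to 31 counts), without overlap. It was called (adjusted p = 1.96e-05), but it met the count minimum only through the *glp-1* libraries, was not tested in the 6 fits that left out one of them, and was near the limit of detection in WT25, so that its size of change is not given. *cyp-13A12* measured 1.33, 1.64 and 1.72 CPM in WT25 and 1.46, 4.66 and 52.7 CPM with the *glp-1* label, where the fifth and sixth libraries (52.7 and 22.6 CPM) were far above the rest. Its log2 fold change of 3.25 ± 0.786 (adjusted p = 0.00583) was 2.23 without the fifth library, and the call held in 4 of 12 fits that left out 1 library.

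*cyp-33C2* (V:2183488-2186599) had the largest coefficient of variation of the 68 members in WT20, 181%. With the *glp-1* label it varied by 127.5%, less than *cyp-13A8* (172%) and *cyp-13A12* (135.8%). It measured 1.02, 36.5, 1.11, 0.939, 0.62 and 6.90 CPM in WT20 libraries 1 to 6, and 5.28, 1.18, 3.09, 0.677, 31.4 and 14.5 CPM with the *glp-1* label. The highest value in the 24 libraries of the other 4 groups was 1.23 CPM. The second and sixth WT20 libraries and the fifth and sixth *glp-1* libraries were high, and the libraries with the *glp-1* label did not overlap WT25 (0.208, 0.360 and 0.609 CPM). Against WT25 the log2 fold change with the *glp-1* label was 4.64 ± 0.892 (adjusted p = 0.00129), called in all 12 fits that left out 1 library, with 3.73 as the lowest, without the fifth *glp-1* library. Against WT20 it was -4.18 ± 1.07 with *eat-2* (adjusted p = 0.00645), -3.29 ± 1.01 with *ife-2* (0.00632) and -4.39 ± 1.09 in WT25 (0.00656), and these calls held in 5, 5 and 4 of 12 such fits. Without the second WT20 library they were -2.31, -1.64 and -2.51. With the *osm-5* label the value was -4.73 (adjusted p = 0.0109, not called).

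Other members were high in the same *glp-1* libraries. The fifth was the highest of the 6 for 30 of the 68 members and at least 2 times the next for *cyp-13A8*, *cyp-13A12*, *cyp-14A4*, *cyp-33C2*, *cyp-35A1*, *cyp-35A3* and *cyp-35B1*. *cyp-13A8* measured 33.9 and 11.6 CPM in the fifth and sixth and at most 1.19 CPM in the other 4. *cyp-35A3* measured 8.72, 20.8 and 70.2 CPM with the *glp-1* label, and its log2 fold change of 1.23 (adjusted p = 0.047) was not called. *cyp-35B1*, also known as *dod-13* and a DAF-16 target, was called (2.48 ± 0.451, adjusted p = 0.000852) and rose from 0.0503, 0.246 and 0.481 CPM to 0.63, 1.18 and 3.30 CPM without overlap.

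Of the 7 *cyp-33C* genes tested with the *glp-1* label, 4 were called higher with a median log2 fold change of 0.77 for the 7. *cyp-33C8* (V:3800782-3803542) measured 4.40, 5.42 and 7.17 CPM in WT25 and 9.88, 11.9 and 20.1 CPM with the label, without overlap (1.23 ± 0.177, adjusted p = 0.000155), and WT20 was at 9.47, 9.85 and 10.2 CPM. *cyp-34A9* rose from 3.33, 4.00 and 5.18 CPM to 6.17, 9.60 and 12.3 CPM (1.19 ± 0.175, adjusted p = 0.000183). Against WT20 in place of WT25, 15 of 68 tested members were higher and 5 lower, where 14.2% of all genes were higher and 13.9% lower, and 7 of those 15 were among the 21. The intestinal marker sum was lower with the *glp-1* label (2977 to 4171 CPM) than in WT25 (4873 to 5858 CPM). The 9 genes did not move together: 4 were called lower and 1 higher, with a median log2 fold change of -0.39. Over all genes tested, 10.9% were lower and 12% higher.

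*cyp-37B1* (V:16278116-16280616) and *cyp-32B1* were lower in WT25 than in WT20 and higher with the *glp-1* label than in WT25. *cyp-37B1* measured 6.40, 7.55 and 9.41 CPM in WT20, 1.44, 1.80 and 2.35 CPM in WT25 and 1.44, 6.48 and 15.8 CPM with *glp-1*, the latter overlapping WT25 in the third library. Its log2 fold change was -2.10 ± 0.143 in WT25 against WT20 (adjusted p = 2.35e-07), 1.97 ± 0.447 with *glp-1* against WT25 (adjusted p = 0.00394, called in 10 of 12 fits that left out 1 library) and -1.64 ± 0.181 with *osm-5* (adjusted p = 4.65e-05). *cyp-32B1* fell by 2.05 in WT25 and by 1.73 with *osm-5* and was 1.63 higher with *glp-1*. *cyp-14A4* fell by 0.98 in WT25 and 1.75 with *osm-5*, and its rise of 1.41 with *glp-1* held in 4 of 12 fits that left out 1 library. The molting marker sum was 255 and 295 CPM in the third and the fifth *glp-1* library, where *cyp-37B1* (1.44 and 2.77 CPM) and *cyp-32B1* (2.23 and 2.80 CPM) were lowest, and 714.5 to 1306 CPM in the other 4. It was 29.5 to 113 CPM with the *osm-5* label against 360 to 744 CPM in WT20, without overlap, and its part in these values was not tested.

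Compared with the spread between replicates, the non-overlapping members out of all 68, tested or not, were 16 with the *eat-2* label, 45 with *ife-2*, 34 with *osm-5*, 17 with *glp-1* and 25 in WT25. The groups of all genes tested did not overlap for 22.7%, 75.8%, 26.9%, 20.7% and 19.5%. The share of members was near that of all genes with *eat-2* and *glp-1*, below it with *ife-2* and above it with *osm-5* and in WT25. The median coefficient of variation of a member within a group ran from 16.9% in WT20 to 28.2% with the *eat-2* label. The second *eat-2* library was the highest of its 6 for 32 members and had the highest molting sum of all 36 libraries, 2172 CPM against 345 to 1168 CPM in the other 5.

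Partners of the enzymes were measured alongside. *emb-8*, the P450 reductase that supplies electrons, was 134 to 140 CPM on average in WT20 and with the *eat-2* and *ife-2* labels and was lower with *glp-1* (log2 fold change -0.29, adjusted p = 0.00831). *cytb-5.1*, a cytochrome b5, rose from 51.3 to 130 CPM with the *ife-2* label (1.44 ± 0.091, adjusted p = 3.82e-10). Smaller rises were called with *eat-2* (0.34, adjusted p = 0.0049) and in WT25 (0.39, adjusted p = 0.00228). In the dafachronic acid pathway, which turns cholesterol into the ligands of the receptor DAF-12, *daf-36* rose by 1.42 with the *ife-2* label and 0.85 with the *osm-5* label (adjusted p = 6.72e-10 and 3.99e-05). *daf-36* was also called higher in WT25 (0.38, adjusted p = 0.00432). The P450 gene *daf-9*, which the naming rule leaves out, rose by 0.92 with the *ife-2* label. *dhs-16* was called lower with *osm-5* (adjusted p = 0.00119), at 0 to 0.274 CPM against 0.539 to 1.51 CPM in WT20. Its *osm-5* libraries were near the limit of detection and it met the count minimum of the test largely through WT20, so its size of change is not given. Of the 17 partners and regulators tested, 10 were higher and 3 lower with *ife-2*, 1 and 3 with *eat-2*, 1 and 1 with *osm-5*, 4 and 2 with *glp-1* and 2 and 3 in WT25. Over all genes tested, the shares higher and lower were 44.1% and 40.9% with *ife-2* and 18.4% and 12.8% with *eat-2*. They were 7.01% and 10.9% with *osm-5*, 12% and 10.9% with *glp-1* and 13% and 11% in WT25. *nhr-176*, a receptor needed for induction of *cyp-35D1*, rose by 1.04 with *ife-2* while *cyp-35D1* itself was 0.62 (adjusted p = 0.0237, not called).

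Members also appear in stress-response gene lists that the study took from other work. Of the 12 members in the list for the mitochondrial unfolded protein response to *spg-7* RNAi, 5 of 10 tested were higher with *glp-1* with a median log2 fold change of 1.00, beside 16 of 50 other members with 0.33. The 5 include *cyp-13A12*, *cyp-14A4* and *cyp-33C2*, for which the fifth *glp-1* library was at least 2 times the next. In WT25, 1 of 12 was higher and 9 were lower (-0.98), beside 5 and 17 of 53 others (-0.24). With *osm-5*, 1 of 11 was higher and 5 were lower (-1.73), beside 13 and 10 of 52 others (0.12). With *ife-2*, 3 of 12 were higher and 3 lower (-0.29), beside 33 and 10 of 54 others (0.72). With *eat-2*, 0 of 11 were higher and 5 lower (-0.86), beside 5 and 13 of 53 others (-0.31). Of the 23 members in the DAF-16 list, 9 of 22 were higher with *glp-1*, beside 12 of 38 other members. The lists are not separate, since members such as *cyp-13A12*, *cyp-14A4* and *cyp-33C2* are in both. With *ife-2*, 12 of 22 were higher and 5 lower, beside 24 and 8 of 44 others. With *eat-2*, 2 of 22 were higher and 10 lower, beside 3 and 8 of 42 others. With *osm-5*, 5 of 22 were higher and 4 lower, beside 9 and 11 of 41 others. In WT25, 4 of 22 were higher and 12 lower, beside 2 and 14 of 43 others. The list for the cytoplasmic unfolded protein response held 15 members, which are not described by list here.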

How the data were processed

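Polyadenylated RNA of whole *C. elegans* was sequenced in 36 libraries, each run on 3 flowcells. As the authors describe, a bcbio-nextgen pipeline trimmed reads if necessary (cutadapt), checked quality on STAR alignments to the Ensembl release 90 WBcel235 genome and quantified transcripts with Salmon. The deposited values are estimated counts per gene, summed with tximport and given as whole numbers. Versions are not given in the sources used here. The study's batch covariate is not given in the labels and was not used.

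Symbols, positions and exon lengths came from Ensembl WBcel235 release 115, which matched 45842 of 46093 identifiers. Members and lists were chosen with earlier results of these data known. A gene entered a test with 10 or more counts in 6 or more of its 12 libraries. Tests were run in R 4.3.3 with edgeR 4.0.16 (TMM normalisation, quasi-likelihood test, two-sided) and genes were called under 0.01 after Benjamini-Hochberg adjustment over all genes tested. Levels are CPM with TMM factors over all 36 libraries, divided by exon length only to compare genes. DESeq2 1.42.0, other scalings, filters, thresholds, control groups, a fit of all 36 libraries, a replicate block and leaving out each library were alternatives. The genes described with full values were *cyp-33C2*, the 2 largest non-overlapping calls in each direction per comparison with a mean of at least 10 counts, the 3 highest per kb in WT20 and members of known role; others named were chosen after their values were seen. On counts simulated for the *eat-2* comparison (16505 genes), edgeR recovered 77% of genes changed 2-fold and 96% of those changed 4-fold. The 200 genes changed were drawn from those with higher mean counts, and the other comparisons were not simulated. These shares therefore need not hold for members at low counts or for the other labels. Within a group no library repeated another: replicates differed beyond sampling noise, with a chi-square of at least 8.42 per degree of freedom over 90 pairs. Libraries of different groups were not compared in this way. P-values measure the spread between the libraries of a group.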

Additional observations from a re-analysis of the deposited data

Results flagged for a closer look

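In 14 of 126 groups of 6 libraries of the named members, the highest or lowest library stood apart by Dixon's test (the gap to the next library over the range of the group, at the 95% level), where chance gives about 6.3. The second and the fifth WT20 library were high for *cyp-33C2* (36.5 CPM) and *cyp-13A5* (33.6 CPM). Of those labelled *glp-1*, the fourth was high for *cyp-14A5* (41.7 CPM), the third low for *cyp-13A6* (0.334 CPM) and the fifth high for *cyp-35B1* (3.30 CPM) and *cyp-14A4* (3.56 CPM). The third *osm-5* library was low for *cyp-43A1* (12.6 CPM) and *cyp-36A1* (3.09 CPM) and high for *cyp-34A9* (21.8 CPM) and *cyp-29A3* (10.7 CPM). The second *eat-2* library was high for *cyp-34A9* (10.2 CPM) and *cyp-37B1* (16.9 CPM) and the fifth *eat-2* library for *cyp-13A7* (0.399 CPM), and the first *ife-2* library was high for *cyp-33E2* (19.6 CPM).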

How the results depend on the processing

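The other wild type changed the most. With WT25 as control, 0 members were higher and 0 lower with the *eat-2* label (5 and 18 against WT20), 5 lower with *ife-2* (13) and 2 lower with *osm-5* (15); with WT20 as control, 5 were lower with *glp-1* (0). Signs turned with WT25 as control for *cyp-33C2* (0.19), *cyp-13A5* (0.72), *cyp-43A1* (-0.061), *cyp-34A9* (0.26) and *cyp-14A4* (0.10) with *eat-2*, *cyp-33C2* (1.01), *cyp-13A5* (0.58) and *cyp-13A6* (1.05) with *ife-2* and *cyp-14A5* (-0.022) and *cyp-37B1* (0.41) with *osm-5*, and with WT20 as control for *cyp-34A9* (-0.37) and *cyp-37B1* (-0.12) with *glp-1*. Members higher with *eat-2* were 1 with total counts, 3 with upper-quartile scaling, 3 with no filter, 2 in the fit of all 36 libraries, 9 at an adjusted p below 0.05 and 1 with at least a 2-fold change; lower were 30 and 9 with the last 2. With *ife-2*, 8 were lower with upper-quartile scaling. With *osm-5*, 6 were higher with total counts and 8 with a 2-fold change. With *glp-1*, 12 were higher with a 2-fold change. In WT25, higher were 10 with DESeq2, 3 with total counts, 10 at 0.05 and 1 with a 2-fold change, and 11 were lower with a 2-fold change. The cause was not tested.

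Leaving out each library in turn gave 1 to 8 members higher and 13 to 25 lower with *eat-2*, 31 to 38 and 12 to 13 with *ife-2*, 12 to 19 and 13 to 20 with *osm-5*, 15 to 21 and 0 with *glp-1* and 3 to 8 and 16 to 25 in WT25. Members higher with *eat-2* were 1 without *eat-2* library 1, 3 or 6 or WT20 library 2 or 4, 2 without WT20 library 3 or 6, 3 without WT20 library 1 or 5 and 8 without *eat-2* library 5. In WT25, 3 were higher without WT20 library 2, and 16 were lower without WT25 library 2 and 17 without WT25 library 5 or WT20 library 3, 4 or 6. Of 777 values of named members under the other settings, 666 kept direction and side of the threshold, 57 lost and 42 gained the call and 12 turned; of 1188 leaving out a library, 1074 kept both, 95 lost and 19 gained the call.

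Replicate numbers did not pair the libraries. Deviations of same-numbered libraries correlated from -0.581 to 0.496 over 30 pairs, and 4 of 30 correlated best with their own number. With a replicate block, 4 members were higher and 16 lower with *eat-2*, 35 and 11 with *ife-2*, 11 and 11 with *osm-5*, 10 and 0 with *glp-1* and 3 and 15 in WT25. The alternative of members that share no 31-base word with another gene was not run, since transcript sequences were not used here. At 35524715 counts or more per library, 3 counts are the floor of detection for low members.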
